A study of Mus musculus with 24 samples.

Results

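The proteasome is the protease that removes ubiquitin-tagged proteins, and its genes are described here in mouse liver by their read counts. Its members were taken by name, as every listed gene whose symbol starts with Psma, Psmb, Psmc, Psmd, Psme or Psmg followed by a number, pseudogenes left out. The rule found 48 of the 15160 genes listed, and 47 of them were among the 13336 genes with enough reads to be tested. By role these are 8 alpha and 7 constitutive beta subunits of the catalytic core, 5 immune subunits, 6 ATPases and 11 other subunits of the regulatory cap, 7 assembly factors and 2 further activators. The other 2 carry such a name only. Psmc3ip, which was not tested, encodes a protein of meiotic recombination, and Psme2b is a single-exon near copy of Psme2 whose reads the counting could have mixed with those of Psme2.

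All mice were male and homozygous for a floxed allele of Nfe2l2, the gene of the transcription factor NRF2. Those labelled NRF2fl/fl are called WT, and their littermates that in addition carried Cre recombinase under the albumin promoter, labelled NRF2fl/(alb), are called NRF2 KO. That promoter is active in hepatocytes, so other liver cells keep the gene. From 8 weeks of age they ate amino acid diets without cysteine and with 0.86% (Con) or 0.17% (MR, methionine restriction) methionine for 8 weeks, and the labels give an age of 5 months and a fast of 4 h at death. In the study's methods, calorimetry and a further stay in the home cages came between those 8 weeks and tissue harvest. The 8 weeks are thus not the whole time to harvest. After removal of the mice WT_CON_7604 and WT_MR_7612, which the study left out as outliers, 5 mice remained in each WT group and 6 in each NRF2 KO group, with 1 library each.

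In the constitutive 20S core, rings of alpha subunits gate the chamber and rings of beta subunits line it, with the proteolytic sites carried by the products of Psmb5, Psmb6 and Psmb7. Interferon induces Psmb8, Psmb9 and Psmb10, whose products replace these catalytic subunits and favour peptides for MHC class I, together with the activator subunits Psme1 and Psme2. The 19S cap recognises ubiquitin and unfolds the substrate with its ring of ATPases, and the transcription factors NRF1 (Nfe2l1) and NRF2 are known to act on proteasome genes.

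Between 6197291 and 22068338 reads were counted per mouse in the 22 mice, of which the 48 genes took 0.388 to 0.607%. The reads come from the 3′ end of each transcript, and levels are given as CPM, counts scaled by edgeR's TMM factors to a common library total, which cannot be compared between genes. Hepatocyte markers were abundant, with 77088 to 132981 CPM summed over 9 genes. In whole liver, fewer cells of a type and less RNA per cell cannot be told apart. Nfe2l2 itself did not check the labels by a loss of reads, since its summed reads were not lower in NRF2 KO and no count by exon was used here. It had 228 to 339 CPM in NRF2 KO mice on Con and 202 to 249 in those on MR. In WT it had 94.02 to 125 CPM, except in the library labelled WT_CON_7607 with 324, within the NRF2 KO range. By the test described next it was called higher in NRF2 KO on Con (0.83 log2 units, adjusted p = 0.045) and on MR (1.177, adjusted p = 0.0035). The study's methods say that every mouse was genotyped by PCR of hepatic Nfe2l2 mRNA. With primers on the deleted exon, the study found this mRNA lower in NRF2 KO than in WT livers. The library labelled WT_CON_7607 was kept under its label, and counts without it are given where they differ. A gene was called when the quasi-likelihood test of edgeR, with Benjamini-Hochberg adjustment over all tested genes, gave an adjusted p under 0.05, and all adjusted p are from it unless another tool is named. They weigh the difference between groups against the spread between mice.

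The RefSeq promoter table (GRCm38.p6, 250 bases before to 50 after each start) held 40 of the 48 genes, with 43 windows. They were searched on both strands for the core of the antioxidant response element TGACNNNGC, to which NRF2 and NRF1 can bind, for the interferon-stimulated response element core GAAANNGAA, for the gamma-activated site TTCNNNGAA, and for the C/EBP-ATF response element TTGCATCA, to which ATF4 can bind. The first was in 6 of the 43 windows (14.0%, against 12.4% of 32851 promoters), the second in 7 (16.3%, against 8.56%), and the third in 3 (6.98%, against 8.30%). The fourth was in 1, that of Psmd13 (2.33%, against 0.895%). Of the genes with calls described below, Psmb5, Psmb6, Psmc6 and Psme4 held the first, Psmb4 and Psmd4 the second, and Psmb8 the third. The sites of the catalytic subunits Psmb5 and Psmb6, of the ATPase Psmc6 and of the immune subunit Psmb8 are shown, with the match in capitals, as examples from 3 classes of subunit. Psme4, Psmb4 and Psmd4 also held a match and a call and are not shown. A match is a run of letters, not a measured binding site.
Psmb5 (chr14:54618023-54618095, minus strand): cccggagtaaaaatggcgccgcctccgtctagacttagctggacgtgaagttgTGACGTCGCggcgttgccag
Psmb6 (chr11:70525297-70525356, plus strand): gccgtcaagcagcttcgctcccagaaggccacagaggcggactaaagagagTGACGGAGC
Psmc6 (chr14:45329574-45329633, plus strand): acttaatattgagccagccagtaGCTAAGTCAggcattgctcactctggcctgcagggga
Psmb8 (chr17:34198088-34198116, plus strand): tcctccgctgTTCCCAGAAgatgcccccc
Counted from the RefSeq start, the match spans -47 to -39 in Psmb5, -9 to -1 in Psmb6, -227 to -219 in Psmc6 and -97 to -89 in Psmb8. That of Psmc6 lies on the minus strand and so reads as the reverse complement of the motif. The Psmb8 stretch lies before the RefSeq start but inside the gene by the GENCODE position given for Psmb8 below.

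In WT mice 4 of the 47 proteasome genes passed the test for methionine restriction. The catalytic subunit Psmb5, the assembly factor Psmd5 and the activator Psme4 rose, and the immune subunit Psmb8 fell. The 3 risen genes are 6.38% of the 47 tested, beside 6.91% of all tested genes called higher, and the 1 fallen gene is 2.13%, beside 6.91% called lower. The shares of members were thus near or below those of all genes. The median log2 fold change of the 47 was 0.02, with 30 above 0, beside -0.0062 over all genes. With scaling by library size alone the median over all genes moved to 0.09 and that of the members to 0.12, with 39 above 0, and the genes called over the whole table went from 922 higher and 921 lower to 1434 and 526.

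Psmb5 (chr14:54614119-54618022, minus strand) encodes the beta subunit with chymotrypsin-like activity. It had 22.2, 21.7, 20.8, 19.6 and 20.2 CPM in the WT Con mice and 27.1, 26.7, 26.7, 25.01 and 26.3 in the WT MR mice. Every WT MR mouse lay above every WT Con mouse, with means of 20.9 ± 1.06 and 26.4 ± 0.804 CPM (SD, n = 5 each), a shift of 0.34 ± 0.09 log2 units (SE, adjusted p = 0.015). In NRF2 KO the lowest, median and highest values were 16.4, 20.9 and 22.3 CPM on Con and 19.4, 22.7 and 28.03 on MR, which overlapped (0.16 log2 units, adjusted p = 0.23). Psmd5 (chr2:34849734-34874968, minus strand), a chaperone that helps build the base of the cap, had 32.5, 30.04, 26.8, 27.3 and 25.9 CPM on Con and 38.6, 42.9, 44.5, 34.96 and 38.2 on MR, again with no overlap. Its log2 fold change was 0.49 (standard error 0.12, adjusted p = 0.0075). These were the 2 members, 4.26% of those tested, with every MR mouse above every Con mouse, beside 5.32% of all genes. Psme4 (chr11:30771726-30880361, plus strand), which encodes the activator PA200, had 106, 87.6, 86.7, 89.7 and 102 CPM on Con and 109, 100.3, 112, 116 and 113 on MR. The ranges overlapped, and all 5 MR mice lay above the Con mean, with a shift of 0.22 ± 0.07 log2 units (SE, adjusted p = 0.042).

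The calls of Psmb5 and Psmd5 held in each of the 22 fits that left out 1 mouse, whereas that of Psme4 held in 15. The count of 4 called members was 2 without WT_CON_7603, WT_CON_7605, WT_MR_7609, WT_MR_7615 or WT_MR_7616, and also 2 when only the WT mice were fitted. Without the library labelled WT_CON_7607 it was 2 higher and 2 lower, with Psme4 no longer called and Psmb9 called.

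In NRF2 KO mice methionine restriction raised genes of the core and of the ATPase ring. Here 10 members rose and 0 fell. The 10 are the alpha subunits Psma4, Psma5 and Psma7, the beta subunit Psmb4, the ATPases Psmc3, Psmc4, Psmc5 and Psmc6, the cap subunit Psmd1 and the immune subunit Psmb10. They are 21.3% of the 47 tested, beside 6.23% of all genes called higher, while 6.34% of all genes were called lower. The median log2 fold change was 0.15 with 39 of 47 above 0, beside -0.0042 over all genes. Library size scaling moved the median over all genes to 0.15 and that of the members to 0.31, and it raised the count from 10 to 29, with 2397 genes of the whole table called higher and 388 lower in place of 831 and 846. Summed over the members, NRF2 KO mice had 4431 to 4874 CPM on Con and 4867 to 5596 on MR, which overlapped at 1 mouse of each diet, and WT mice had 4390 to 4799 on Con and 4241 to 4799.6 on MR. Markers of other cells moved as well. The 9 hepatocyte markers summed to 112482 to 132981 CPM on Con and 96606 to 120542 on MR in NRF2 KO, with 1, Apoa1, called lower, and to 87751 to 118590 and 77088 to 95680 in WT, again with Apoa1 called lower. The 5 endothelial markers summed to 241 to 283 CPM on Con and 272 to 309 on MR in NRF2 KO, with 1, Kdr, called higher, and to 228 to 279.8 and 255 to 280.0 in WT, with 0 called. Their part in the rises was not tested.

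By class, the median log2 fold change in NRF2 KO was 0.29 for the ATPases (4 of 6 called), 0.25 for the core alpha subunits (3 of 8), 0.14 for the core beta subunits (1 of 7), 0.13 for the non-ATPase subunits of the cap (1 of 11), 0.07 for the immune subunits (1 of 5) and 0.0065 for the assembly factors (0 of 7). In WT the same medians were -0.01, 0.07, 0.04, -0.01, 0.08 and 0.11, and with library size scaling those of the ATPases and of the non-ATPase subunits were above 0, at 0.08 each. Psma8, an alpha subunit known from testis, was low in every mouse, at 0.345 to 2.41 CPM.

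**Figure D1:**
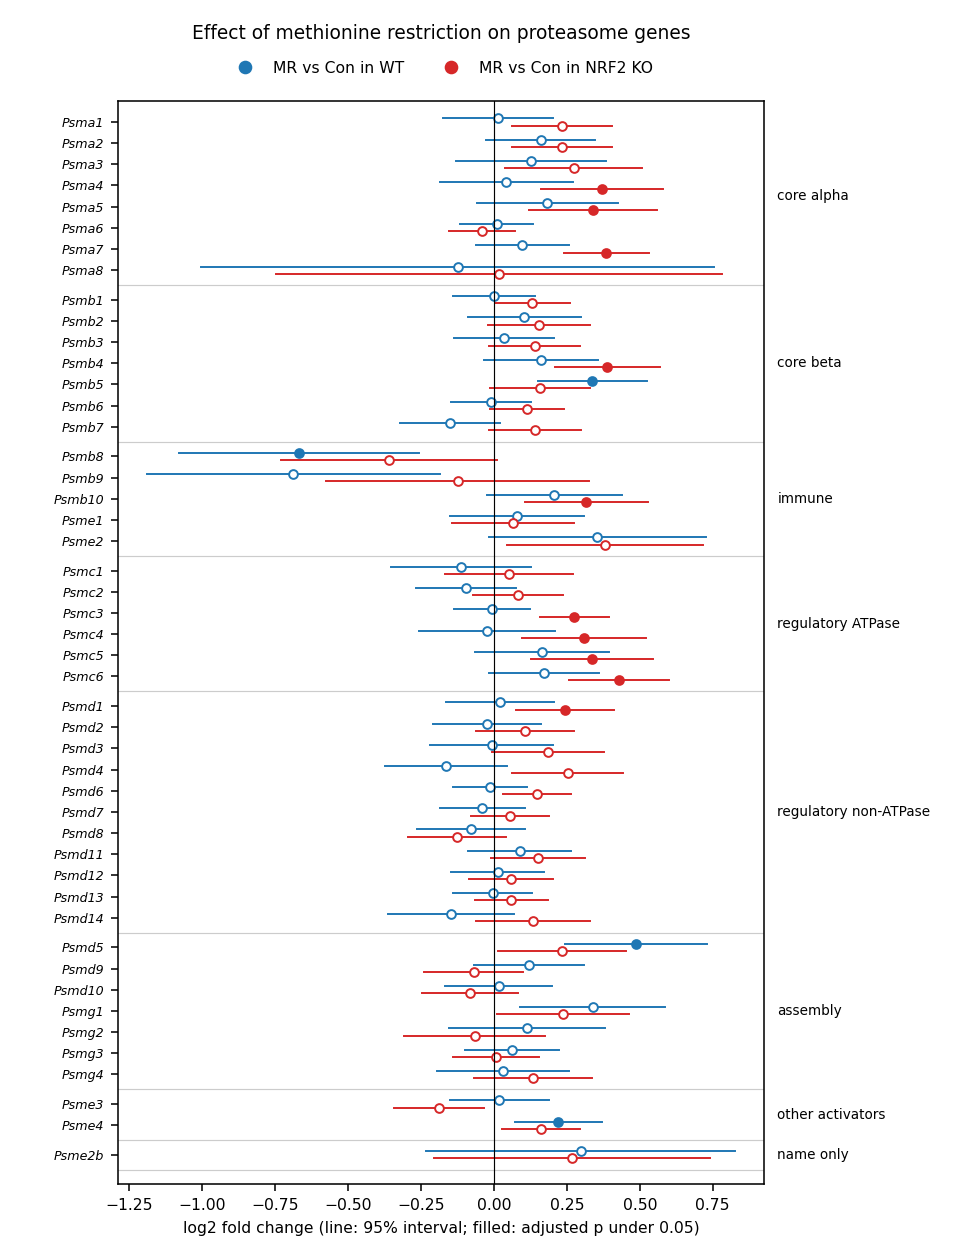
Log2 fold change of each tested proteasome gene under methionine restriction in WT (blue) and in NRF2 KO (red), with lines for the 95% interval and filled points for calls, grouped by role. The ATPases and core alpha subunits hold 7 of the 10 calls in NRF2 KO and none of the 4 in WT, and the assembly gene Psmd5 has the highest value in WT, 0.49.

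Psma7 (chr2:180036374-180042433, minus strand), an alpha ring subunit, had 244, 273 and 296 CPM on Con and 327, 351 and 392 on MR as the lowest, median and highest values in NRF2 KO mice. No MR mouse overlapped a Con mouse, and the test gave a shift of 0.39 ± 0.07 log2 units (SE, adjusted p = 0.00088). In the WT groups Psma7 had 276, 260.1, 244, 287 and 247 CPM on Con and 249.5, 285, 311, 279.8 and 282 on MR, which overlapped. Psmb4 (chr3:94884093-94886961, minus strand), a beta subunit without a catalytic site, ran from 213, 243 and 277 CPM in NRF2 KO Con to 296, 308 and 357 in NRF2 KO MR in the same order. These ranges did not overlap either, with a shift of 0.39 ± 0.09 log2 units (SE, adjusted p = 0.0046). In WT it had 245, 204, 207, 217 and 202 CPM on Con and 202, 232, 271, 237 and 259.7 on MR. Both groups overlapped there, and the log2 fold change was 0.16 (adjusted p = 0.28).

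Psmc3 (chr2:91054009-91066369, plus strand), an ATPase of the cap, had 135, 145 and 151 CPM in NRF2 KO mice on Con and 157, 172 and 189.8 in those on MR (lowest, median and highest), a shift of 0.28 ± 0.06 log2 units (SE, adjusted p = 0.0028). The WT mice lay close together, at 139.9, 135, 145, 148 and 149 CPM on Con and 139, 147, 145, 141 and 140.3 on MR. The lowest NRF2 KO MR mouse was above each of the 16 other mice. The 3′ end of Psmc3 overlaps that of Slc39a13 on the other strand, and the strand setting of the counting is not given in the sources used here. For Psmc6 (chr14:45329788-45349705, plus strand), another ATPase, the lowest, median and highest values were 68.2, 75.01 and 85.3 CPM in NRF2 KO mice on Con and 92.4, 104 and 112 in those on MR, with a shift of 0.43 ± 0.08 log2 units (SE, adjusted p = 0.0014). In WT Psmc6 had 89.9, 77.5, 70.1, 79.2 and 69.5 CPM on Con and 73.4, 94.8, 102, 81.5 and 82.5 on MR, which overlapped (log2 fold change 0.17, adjusted p = 0.22). Psma7, Psmb4, Psmc3 and Psmc6 were the 4 members, 8.51%, with every NRF2 KO MR mouse above every NRF2 KO Con mouse, beside 2.62% of all genes.

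The 6 other rises overlapped between the diets. Psma4, an alpha subunit, had 105, 120.0 and 141 CPM (lowest, median and highest) on Con and 139, 153 and 189 on MR, a shift of 0.37 ± 0.10 log2 units (SE, adjusted p = 0.017). The ATPase Psmc5 had 36.9, 45.6 and 54.4 CPM on Con and 52.6, 56.6 and 63.3 on MR, a log2 fold change of 0.34 (adjusted p = 0.030). In both genes all 6 MR mice lay above the Con mean. The log2 fold changes of the others were 0.34 for Psma5 (adjusted p = 0.038), 0.32 for Psmb10 (0.042), 0.31 for Psmc4 (0.04997) and 0.24 for Psmd1 (0.04964), the last 2 just under the threshold. The 3′ end of Psmd1 overlaps Gm21972 on the same strand.

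Leaving out 1 mouse in turn kept the calls of Psma4, Psma7, Psmb4, Psmc3 and Psmc6 in all 22 fits, and those of Psmc5, Psma5, Psmb10, Psmc4 and Psmd1 in 16, 15, 13, 10 and 8. The count of called members was 5 without KO_CON_7618, KO_CON_7620 or KO_MR_7625 and 6 without KO_CON_7617, KO_MR_7627 or KO_MR_7629, and it reached 15 at most.

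**Figure D2:**
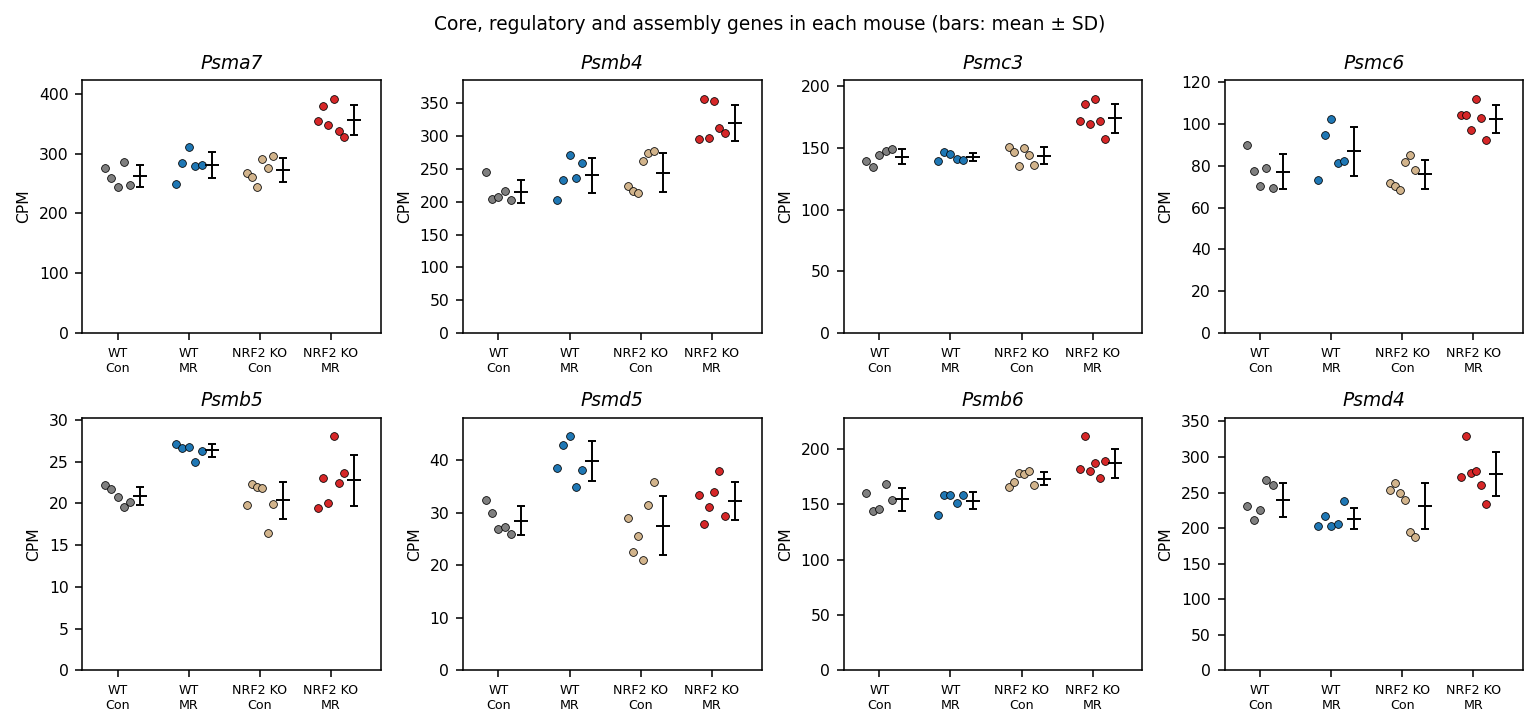
CPM of 8 proteasome genes in each of the 22 mice by group, with bars for the mean and SD and each vertical axis starting at 0. For Psma7, Psmb4 and Psmc3 the 6 NRF2 KO MR mice lie above all NRF2 KO Con and all WT MR mice, and for Psmb5 and Psmd5 the WT MR mice lie above the WT Con mice.

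On the Con diet no proteasome gene was called between NRF2 KO and WT by edgeR, beside 0.802% of all genes called higher and 1.27% lower in NRF2 KO. At an unadjusted p under 0.05 there were 4, Psma6, Psmb6 and Psmd13 with higher values and Psmd11 with a lower value in NRF2 KO. The share of all genes at that level was not counted, so these 4 cannot be read as many or few. DESeq2 and limma called 0 members. The median log2 fold change was 0.03 with 29 of 47 above 0, beside -0.0037 over all genes. Under library size scaling it was -0.0047 with 21 above 0, beside -0.0339 over all genes. That scaling gave 63 genes higher and 165 lower over the table in place of 107 and 169. The largest values in size were -0.34 for Psmb9 (adjusted p = 0.53) and -0.24 for the cap subunit Psmd11 (adjusted p = 0.15). Psmd13, a cap subunit, had 96.3, 104, 101, 109 and 99.8 CPM in WT Con and 110.5, 114 and 118 (lowest, median and highest) in NRF2 KO Con. It was the 1 member, 2.13%, whose NRF2 KO mice all lay above all WT mice on Con, beside 0.945% of all genes, with a log2 fold change of 0.16 (adjusted p = 0.23). The count stayed 0 without the library labelled WT_CON_7607.

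On the MR diet 6 proteasome genes were higher in NRF2 KO than in WT and 0 lower. They are 12.8% of the 47 tested, beside 0.555% of all genes called higher and 1.38% lower. These 6 are the core genes Psma7, Psmb4, Psmb6 and Psmb7, the ATPase Psmc3 and the cap subunit Psmd4, so that Psmb6 and Psmb7 of the constitutive catalytic subunits are among them. The remaining one, Psmb5, had the lowest value of the core beta subunits, -0.21 log2 units (95% interval -0.39 to -0.03, adjusted p = 0.25), and was not called. The comparison shares the NRF2 KO MR mice with the diet comparison above, and 3 of its genes, Psma7, Psmb4 and Psmc3, were called in both. The median log2 fold change was 0.19 with 34 of 47 above 0, beside 0.0047 over all genes. Within the core and cap, 28 of 32 genes were above 0 (median 0.22), and 1 of the 7 assembly factors was (median -0.18, with 0 called).

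Psma7 was at 249.5, 285, 311, 279.8 and 282 CPM in WT MR and at least 327 in NRF2 KO MR, a shift of 0.34 ± 0.07 log2 units (SE, adjusted p = 0.010). Psmb4 gave a shift of 0.41 ± 0.09 log2 units (SE, adjusted p = 0.012), and Psmc3 a shift of 0.29 ± 0.06 log2 units (SE, adjusted p = 0.0081), from the values by mouse given above. In each of these 3 genes all 6 NRF2 KO mice exceeded all 5 WT mice. Psmb6 (chr11:70525367-70527858, plus strand), the beta subunit with caspase-like activity, had 140.5, 158, 159, 151 and 159 CPM in WT MR and 173, 184 and 211 in NRF2 KO MR (lowest, median and highest), a shift of 0.29 ± 0.06 log2 units (SE, adjusted p = 0.013). On Con it had 160.2, 144, 145, 168 and 154 CPM in WT and 166, 174 and 179.6 in NRF2 KO, which overlapped, with 0.16 on the log2 scale (adjusted p = 0.23). Psmb6 was thus called between genotypes on MR and in neither diet comparison.

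Psmb7 (chr2:38588036-38644087, minus strand) encodes the beta subunit with trypsin-like activity. In WT it had 209, 181, 187, 192 and 181 CPM on Con and 161, 189.9, 172, 168 and 166 on MR. In NRF2 KO the lowest, median and highest values were 159, 201 and 213 CPM on Con and 190.5, 215 and 242 on MR, so that the genotypes did not overlap on MR, with a shift of 0.31 ± 0.08 log2 units (SE, adjusted p = 0.035). Reads of Psmb7 may mix with those of Nek6, which overlaps its 3′ end on the other strand, and Psmb5, Psmb6 and Psmb7 have processed pseudogenes that could share reads. Psmd4 (chr3:95032694-95042614, minus strand), a ubiquitin receptor of the cap, had 204, 218, 203, 205 and 238 CPM in WT MR and 234, 275 and 329 in NRF2 KO MR, which overlapped at 1 mouse of each genotype, with a shift of 0.37 ± 0.10 log2 units (SE, adjusted p = 0.047). In WT Con it had 231, 211, 225, 268 and 260.4 CPM and in NRF2 KO Con 187, 244 and 264.

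All 6 NRF2 KO MR mice were above all 5 WT MR mice in 9 members, 19.1% of those tested, beside 1.69% of all genes. Besides Psma7, Psmb4, Psmb6, Psmb7 and Psmc3 they were Psma1 (0.28, adjusted p = 0.10), Psma3 (0.27, 0.31), Psmb1 (0.22, 0.078) and Psmd14 (0.32, 0.10), which were not called. The calls of Psma7, Psmb4 and Psmc3 held in all 22 fits without 1 mouse, that of Psmb6 in 21, with an adjusted p of 0.052 and a log2 fold change of 0.26 without WT_MR_7609, that of Psmb7 in 14 and that of Psmd4 in 8. Without WT_MR_7609, which had the lowest values of Psma7, Psmb4 and Psmb6 in that group, the count was 3. Summed hepatocyte markers on MR were 77088 to 95680 CPM in WT and 96606 to 120542 in NRF2 KO, with 1 of 9, Apoa1, called higher. On Con they were 87751 to 118590 in WT and 112482 to 132981 in NRF2 KO, with 0 called. Their part in these results was not tested.

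**Figure D3:**
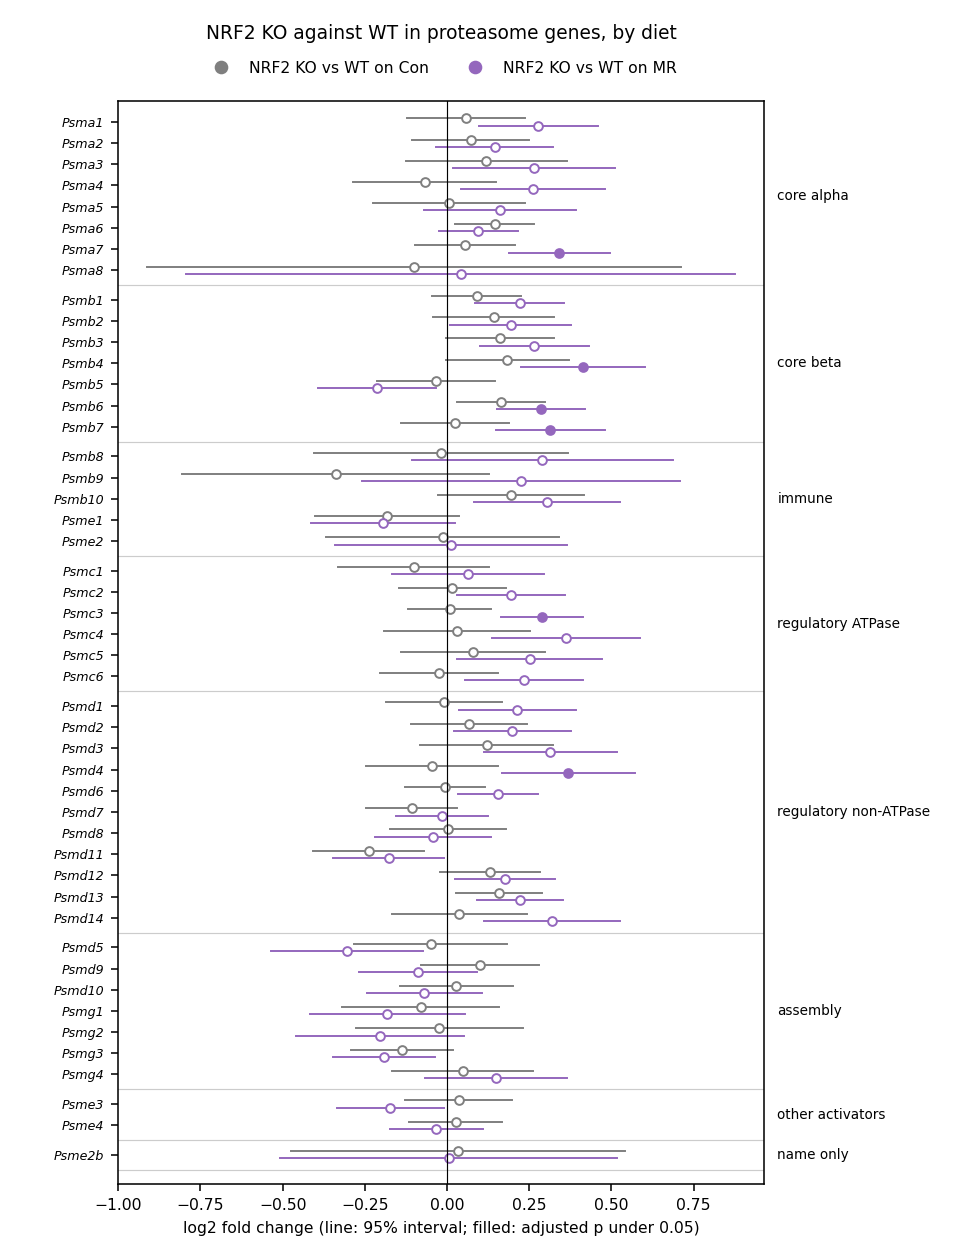
Log2 fold change of NRF2 KO against WT for each tested proteasome gene on the Con diet (grey) and on the MR diet (purple), with lines for the 95% interval and filled points for calls. On Con there are 0 filled points, and on MR the 6 filled points lie between 0.29 and 0.41, all in core and cap genes.

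Whether the effect of the diet differed between genotypes was tested directly as an interaction. It was called for 0 proteasome genes by edgeR, DESeq2 and limma, beside 0.0450% of all genes called by edgeR. The share of all genes with an unadjusted p under 0.05 was not counted. Among the members there were 7, which without that share cannot be read as many or few. All 7 had positive values, meaning a higher MR effect in NRF2 KO: Psma4, Psma7, Psmb7, Psmc3, Psmc4, Psmc6 and Psmd4. The largest of them was 0.42 for Psmd4 (95% interval 0.13 to 0.70, adjusted p = 0.43), whose log2 fold changes were -0.16 in WT and 0.25 in NRF2 KO, with all 5 WT MR mice below the WT Con mean and all 6 NRF2 KO MR mice above the NRF2 KO Con mean. For Psmc3 the interaction was 0.28 (0.10 to 0.46, adjusted p = 0.37), and for Psma7 0.29 (0.07 to 0.50, adjusted p = 0.49). Over the 47 genes the median was 0.12 with 34 above 0, beside 0.0033 over all genes. The calls in NRF2 KO with no call in WT are therefore not shown to be a difference between genotypes. Of the genes called in WT, Psmb5 had -0.18 (-0.43 to 0.07) and Psmd5 -0.25 (-0.58 to 0.07), intervals that include 0.

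The immune subunits did not move as a group. Of the 5, under MR 1 fell in WT (Psmb8) and 1 rose in NRF2 KO (Psmb10). Psmb8 (chr17:34197721-34201454, plus strand), which replaces Psmb5, had 36.05, 42.4, 47.5, 24.4 and 26.4 CPM in WT Con and 15.4, 31.2, 25.1, 18.7 and 20.03 in WT MR. The ranges overlapped, and all 5 MR mice were below the Con mean, with a shift of -0.67 ± 0.20 log2 units (SE, adjusted p = 0.028). In NRF2 KO it had 29.5, 35.04 and 41.5 CPM on Con and 20.8, 27.6 and 36.8 on MR (lowest, median and highest), a log2 fold change of -0.36 (adjusted p = 0.20), and the interaction was 0.31 (-0.24 to 0.86). The call in WT was lost without WT_CON_7603 (-0.60), WT_CON_7605 (-0.54), WT_MR_7609 (-0.56), WT_MR_7615 (-0.62) or WT_MR_7616 (-0.63), and when only the WT mice were fitted. Gm20496 overlaps the 3′ end of Psmb8 on the other strand.

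Psmb9 (chr17:34181987-34187764, minus strand), which replaces Psmb6, had 20.8, 32.2, 34.2, 15.4 and 11.1 CPM in WT Con and 12.6, 18.2, 16.4, 10.5 and 11.7 in WT MR. The 5 WT Con mice were widely spread, and the log2 fold change of -0.69 did not pass the threshold (standard error 0.24, adjusted p = 0.062). It passed without WT_CON_7607, the library with the unusual Nfe2l2 level (-0.79, adjusted p = 0.039), without WT_CON_7608 (-0.87, adjusted p = 0.0076) or without WT_MR_7611 (-0.81, adjusted p = 0.047), and by DESeq2 (-0.70, adjusted p = 0.022). In NRF2 KO the lowest, median and highest values were 12.9, 18.2 and 22.5 CPM on Con and 14.1, 15.7 and 19.6 on MR (-0.12, adjusted p = 0.77). Psmb10 (chr8:105935735-105938444, minus strand), which replaces Psmb7, had values above 0 in both genotypes. WT mice had 33.2, 31.6, 37.5, 28.03 and 35.04 CPM on Con and 35.3, 46.1, 39.3, 34.5 and 35.4 on MR, a shift of 0.21 ± 0.11 log2 units (SE, adjusted p = 0.23). NRF2 KO mice had 34.3, 39.2 and 40.1 CPM on Con and 36.9, 45.4 and 62.1 on MR (lowest, median and highest), a shift of 0.32 ± 0.10 log2 units (SE, adjusted p = 0.042), and 5 of the 6 MR mice were above the Con mean. Gm16156 overlaps the 3′ end of Psmb10 on the other strand.

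The activator subunits Psme1 and Psme2, which form the PA28 ring, were not called in any comparison. Psme1 (chr14:55578123-55581529, plus strand) had 110.4, 116, 118, 97.8 and 136 CPM on Con and 113, 145, 113, 115 and 124 on MR in WT mice, and 83.1, 101 and 121 on Con and 88.6, 105 and 126 on MR in NRF2 KO mice (lowest, median and highest). The diets overlapped in both genotypes, and its 3′ end overlaps Emc9 on the other strand. Psme2 (chr14:55587441-55591113, minus strand) had 46.1, 40.8, 38.7, 28.5 and 30.4 CPM on Con and 37.5, 53.9, 55.5, 42.5 and 46.02 on MR in WT mice, and 25.2, 33.2 and 52.9 and 39.6, 48.7 and 50.8 in NRF2 KO mice. Here too the diets overlapped. Under MR it differed by 0.35 log2 units in the former (adjusted p = 0.20) and by 0.38 in the latter (adjusted p = 0.13), where it passed without KO_CON_7622 (0.48, adjusted p = 0.04961) or KO_CON_7623 (0.51, adjusted p = 0.027) and with library size scaling.

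Each immune catalytic subunit was also set against the constitutive subunit it replaces, as the ratio of their CPM within a mouse, a description without a test. Psmb8 over Psmb5 lay between 1.25 and 2.28 in the WT mice on Con, with a mean of 1.68 ± 0.437 (SD, n = 5), and between 0.569 and 1.17 in those on MR, with a mean of 0.837 ± 0.227 (SD, n = 5). These mice did not overlap. In NRF2 KO it was 1.71 ± 0.141 (SD, n = 6) on Con and 1.23 ± 0.376 (SD, n = 6) on MR, with overlapping ranges of 1.53 to 1.86 and 0.759 to 1.84. Psmb9 over Psmb6 was 0.150 ± 0.0748, 0.0906 ± 0.0193, 0.104 ± 0.0217 and 0.0885 ± 0.0142 (SD) on Con and MR in WT and then on Con and MR in NRF2 KO, and Psmb10 over Psmb7 was 0.174 ± 0.0228, 0.222 ± 0.0142, 0.197 ± 0.0183 and 0.222 ± 0.0380 (SD) in the same order. The mean ratio was thus lower on MR for the first and second pair and higher for the third in both genotypes. Psmb10 over Psmb7 also did not overlap between the diets in WT, at 0.146 to 0.200 on Con and 0.206 to 0.243 on MR. It overlapped in NRF2 KO, and Psmb9 over Psmb6 overlapped in both genotypes. A ratio within a mouse shows unequal change of the pair and does not by itself say which of them changed. In WT under MR, Psmb5 was called higher and Psmb8 lower, as given above, so their ratio is not a separate result. Neither Psmb10 nor Psmb7 was called there.

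**Figure D4:**
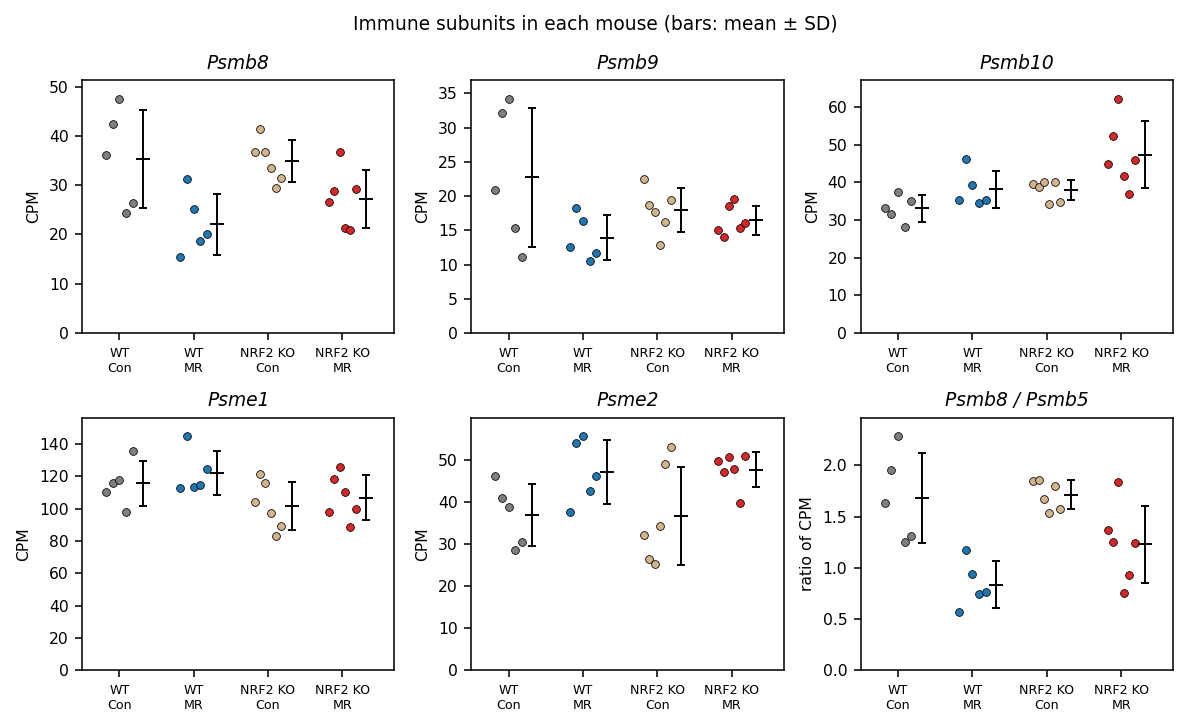
CPM of the 5 immune subunits, and the ratio of Psmb8 to Psmb5, in each of the 22 mice by group, with bars for the mean and SD. The ratio lies between 0.569 and 1.17 in WT MR and between 1.25 and 2.28 in WT Con, while Psmb10 reaches its highest values, up to 62.1 CPM, in NRF2 KO MR.

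Genes that load peptides on MHC class I, and other interferon-responsive genes, were described beside the immune subunits. Tap1 encodes a subunit of the peptide transporter. By GENCODE positions it overlaps Psmb9 on the opposite strand, and its RefSeq start lies 225 bases from that of Psmb9. It fell under MR in both genotypes, from 23.9 ± 5.07 to 13.2 ± 2.82 CPM in WT (SD, n = 5 each; log2 fold change -0.84, adjusted p = 0.00080) and from 25.03 ± 3.87 to 15.8 ± 2.22 in NRF2 KO (SD, n = 6 each; -0.67, 0.0024). Every MR mouse was below every Con mouse in both, which held for 4.00% of all tested genes in WT and 2.83% in NRF2 KO. Of the 10 genes of class I loading, 2 fell in WT (Tap1 and B2m) and 5 in NRF2 KO (the same 2 with Calr, H2-K1 and Pdia3). Of 17 genes of the interferon response, 9 fell in WT and 7 in NRF2 KO and 0 rose, with medians of -0.64 and -0.54. Over all tested genes, 6.91% were called lower in WT and 6.34% in NRF2 KO. Psmb8 and Psmb9 had values below 0 in both genotypes, and Psmb10, Psme1 and Psme2 did not.

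Markers of immune cells moved in part with the same comparisons. On MR 6.91% of all tested genes were called lower in WT and 6.34% in NRF2 KO. Of 10 Kupffer cell markers 6 were called lower on MR in WT and 3 in NRF2 KO. Their summed level was 448 to 584 CPM in WT Con, 346 to 394 in WT MR, 375 to 562 in NRF2 KO mice on Con and 329.9 to 444 in those on MR, without overlap in WT. The 8 dendritic cell markers summed to 147 to 327 CPM in WT Con, 130.0 to 154 in WT MR, 131 to 327 in NRF2 KO mice on Con and 127 to 196 in those on MR. The 13 lymphocyte markers summed to 23.3 to 31.8, 19.5 to 25.0, 20.2 to 31.1 and 19.4 to 26.1 CPM in the same order, and the 4 neutrophil markers to 8.04 to 14.5, 6.54 to 7.43, 5.38 to 8.94 and 4.68 to 14.5. Of 9 lymphocyte markers tested 1, Ptprc, was lower in WT and 0 in NRF2 KO, of 7 dendritic cell markers 0 and 1 (Itgax), and of 3 neutrophil markers 1 (Retnlg) and 0. Ptprc is not restricted to lymphocytes, so its call is not particular to them. None of the listed markers was at 0 in every mouse, Clec4f, Cd79a, Ncr1 and Ly6g are not among the genes listed, and the part of these cells in the values of the immune subunits was not tested.

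Assembly factors and the remaining activators showed few calls. In WT all 7 assembly factors had values above 0 under MR, with a median of 0.11, but Psmd5 was the 1 called. Psmg1, a chaperone of the alpha ring, followed with 0.34 (adjusted p = 0.062) in WT and 0.24 (adjusted p = 0.16) in NRF2 KO, and its value in WT passed without WT_CON_7602, KO_CON_7621 or KO_CON_7623, by DESeq2 and with library size scaling. Summed over the 7, WT MR mice had 198 to 206 CPM and WT Con mice 166 to 187, while NRF2 KO mice had 166 to 189.5 on Con and 170.1 to 196 on MR. Psmd5 in NRF2 KO had 20.97, 27.3 and 35.8 CPM on Con and 27.9, 32.2 and 37.99 on MR (lowest, median and highest), which overlapped (0.23, adjusted p = 0.16). On MR its genotype difference was -0.30 (adjusted p = 0.18). Psme3, the nuclear activator PA28 gamma, had 0.02 in WT and -0.19 in NRF2 KO under MR and was not called. Psme4 had 0.16 in NRF2 KO (adjusted p = 0.11).

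Proteins that bind, build or regulate the proteasome were taken from a list of 17 listed genes. Under MR 1 rose in WT and 4 in NRF2 KO, beside 6.91% and 6.23% of all tested genes called higher. Ecpas, which tethers the cap to the core, rose in both, from 40.5 ± 1.62 to 47.4 ± 2.64 CPM in WT (SD, n = 5 each; log2 fold change 0.23, adjusted p = 0.032) and from 39.7 ± 3.67 to 49.8 ± 2.71 in NRF2 KO (SD, n = 6 each; 0.33, 0.0015). The ubiquitin receptor Adrm1 rose in NRF2 KO by 0.39 on the log2 scale (adjusted p = 0.024), as did the shuttle Ubqln2 (0.65, 0.0099) and Zfand5 (0.35, 0.017). Pomp, which matures the core, had 0.44 between genotypes on MR (adjusted p = 0.12) and was not called. Nfe2l1, the gene of NRF1, was not called in any comparison, with 0.16 and -0.02 under MR in WT and NRF2 KO and -0.29 between genotypes on MR (adjusted p = 0.10). Of 6 genes of ubiquitin and its activating enzymes, Ubb was called, higher in NRF2 KO on MR (0.37, adjusted p = 0.025), beside 0.555% of all genes. Under MR 0 of the 6 were called in either genotype.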

How the data were processed

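RNA of whole liver had been made into QuantSeq 3′ libraries, 1 per mouse. The authors deposited raw read counts per gene and, as a second table, a normalized signal of all 24 mice, taken here as scaled by DESeq2 size factors. For each mouse it equalled the raw counts scaled by 1 constant, within a relative deviation of 5.1e-15. The constants were read from the deposited values, so this does not check how they had been computed. The submitters' processing notes name R 3.4.3 and DESeq2 1.18.1. Mapping and counting had been run by the authors in the kit maker's QuantSeq pipeline for forward (FWD) libraries on the Bluebee platform. The aligner within it and its strand setting are not given in the sources used here. Listed genes had at least 72 counts over the 24 mice.

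Raw counts entered edgeR 4.0.16 under R 4.3.3 (TMM, filter by expression, robust quasi-likelihood F-tests, 1 mean per group, 22 mice), which kept 13336 of 15160 genes. The script was tested on simulated data. Total counts were 6197291 to 22068338 per mouse, and the spread between mice limits the precision. Libraries of a group differed by more than sampling noise (chi-square per gene at least 8.32). Symbols are those given with the authors' normalized signal, gene positions come from GENCODE M21 (GRCm38), and promoters from RefSeq (GRCm38.p6). Alternatives were DESeq2 size factors, library size only, no low count filter, DESeq2 1.42.0, limma 3.58.1 on log2(signal + 1), all 24 mice, only the groups compared, and each mouse left out. Figures used matplotlib 3.10.9 in Python 3.11.15.

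The members, the other gene lists and the comparisons were chosen with earlier results of these data known. Values by mouse in WT, and the lowest, median and highest in NRF2 KO, are given for the 5 immune and 3 constitutive catalytic subunits and, of the others, for up to 6 called members with the smallest p in each comparison. Other members are given by counts and ranges, with the extremes of a class. Any gene named beyond this, such as Psmd13, Psmg1 or Pomp, was chosen after its values were seen.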

Additional observations from a re-analysis of the deposited data

Results flagged for a closer look

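Within the groups of 5 or 6 mice, 68 sets of values of 17 proteasome genes were screened for a mouse far from the rest of its group by Dixon's gap test, and 4 stood out. Chance alone flags about 1 in 20 such sets. Psma4 had 189 CPM in KO_MR_7632, while the 5 other mice of the group had 139 to 157. In the same mouse Psme4 was low, with 96.6 CPM against 107 to 111 in the others. Psme2 had 39.6 CPM in KO_MR_7631 against 47.1 to 50.8. Psmc5 had 53.5 CPM in WT_CON_7602 against 37.8 to 41.9. The call of Psma4 under MR in NRF2 KO held without KO_MR_7632, within log2 fold changes of 0.31 to 0.42 over the 22 fits that each left out 1 mouse.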

How the results depend on the processing

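Of 1598 fits of single members under another setting, 14 lost a call, 35 gained one and 0 reversed a called direction. Leaving out each mouse in turn moved the members called from 4 to between 2 and 5 for MR in WT, from 10 to between 5 and 15 for MR in NRF2 KO, and from 6 to between 3 and 9 for genotype on MR. With only the groups compared in the fit, the counts were 2, 6 and 10. DESeq2 gave 10 for genotype on MR, and scaling by library size alone 29 for MR in NRF2 KO, a setting that moves the median over all genes there to 0.15. Genotype on Con and the interaction stayed at 0 in every setting run. All 24 mice gave 3, 7 and 8. Library size scaling moved class medians beyond the SD between mice. In NRF2 KO under MR these were core alpha 0.41, core beta 0.30, regulatory ATPase 0.45, regulatory non-ATPase 0.29, assembly 0.16 and other activators 0.14. In WT under MR they were core beta 0.12, regulatory non-ATPase 0.0795, assembly 0.21 and other activators 0.21. All 24 mice moved assembly in WT to 0.16 and the core alpha interaction to 0.22. Leaving out 1 mouse gave 0.0401 to 0.12 for assembly in WT, 0.10 to 0.23 for the core alpha interaction, 0.0932 to 0.17 for core beta between genotypes on Con, and -0.15 to 0.0181 for the immune class there. The causes were not tested. No paired analysis was possible because the mice carry animal numbers that the groups do not share. The shallowest library had 6197291 counts and 70 counts of Psmb9, the fewest of the immune subunits.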
